A study of Mus musculus with 70 samples.

Results

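Lungs collected 3 months after a silica exposure were compared with lungs collected 1 day after it, in 24 mice: 12 at each time, with 6 wildtype and 6 knockout mice per time. They were chosen by their labels alone (silica, 1 day or 3 months) from the 70 mice of the series, and all genes of the count table were considered. Every mouse was a male of 129S-Slc26a4tm1Erg/AjgJ stock, homozygous wildtype (Pds+/+) or homozygous knockout (Pds-/-) for Slc26a4, about 3 months old when it inhaled Min-U-Sil5 crystalline silica at 15 mg/m3 for 6 h a day over 4 days. Wildtype and knockout mice that breathed air, 24 animals of the same times and group sizes, served as the background for age and time. RNA came from a piece of lung, so fewer cells of a type and less RNA per cell cannot be told apart in any value below. The knockout is constitutional, and the labels give no library batch and no hour of collection. The question was how the lung's transcripts differ between the early and the later phase after silica, and time cannot be told apart from age and from any library batch that went with it.

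Inhaled quartz particles are taken up by alveolar macrophages and damage their lysosomes, which releases interleukin 1 family cytokines and calls in neutrophils. Particles that are not cleared stay in the tissue, where macrophages loaded with dust and lipid, lymphocytes and antigen-presenting cells gather over weeks to months, and in time collagen nodules form. Slc26a4 encodes pendrin, an epithelial exchanger of chloride, bicarbonate and thiocyanate that is induced in airway epithelium by inflammatory cytokines.

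Library totals of the 24 silica mice ran from 868097 to 3468575 counts (median 2123871), so genes of a few CPM were measured with few reads. Values are normalised CPM, that is, counts relative to the library total after trimmed mean (TMM) scaling. Tests are edgeR quasi-likelihood tests with genotype as a block, with Benjamini-Hochberg adjusted p over all tested genes and a threshold of 0.05, and n = 12 mice per time. Knockout silica replicate 3 of 1 day and knockout silica replicate 3 of 3 months stood apart from the other libraries of their groups, and knockout silica replicate 2 of 3 months had the lowest total. The 3-month replicate 3 was low in airway and alveolar type 1 transcripts. Its summed level of 14 club cell genes was 6340 against 12790 to 16150 in knockout mice of 1 day. For 13 alveolar type 1 genes it was 5489 against 7670 to 8728 in all silica mice of 1 day. The summed level of 15 alveolar type 2 genes was 18300 to 19420 in knockout mice of 3 months, within the 16370 to 20030 of 1 day. Replicate 3 was high in macrophage transcripts, with a summed level of 5521 for 20 lysosomal genes against 3156 to 3559 at 1 day. Leaving out the 2 libraries that stood apart moved many of the counts and calls below, and values without them are given for part of these. A count given alone may have moved, and further values are in the closing section. This alternative was chosen after seeing the data. Lars2, which encodes the mitochondrial leucyl-tRNA synthetase, was placed in the list of noncoding and residual ribosomal genes. It held 1.74% to 8.67% of the counts in silica mice at 1 day and 5.604% to 11.6% at 3 months. Whether these reads came from its mRNA or from residual ribosomal RNA was not tested. In wildtype silica mice its shares did not overlap, with 4.36% to 8.67% at 1 day and 8.85% to 11.6% at 3 months. Refitted without Lars2 and the rest of that list, the silica time comparison gave 391 genes, 390 of them shared with the main fit. What the difference in share reflects was not tested.

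Slc26a4 itself (mm10, chromosome 12, 31519814 to 31560055) followed the genotype labels. In wildtype silica mice its level was 47.9 ± 16.6 at 1 day and 57.4 ± 13.7 at 3 months (SD, n = 6 each), and in knockout silica mice 12.8 ± 5.65 and 16.0 ± 11.0. The 24 air mice had 0.981 to 14.8. The time difference in silica mice was 0.23 on the log2 scale (SE 0.19, edgeR adjusted p = 0.584), which did not pass. Reads remaining in knockout mice say nothing of a working protein.

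Of 12571 genes tested, 391 (3.11%) passed the threshold, 226 (1.8%) higher and 165 (1.31%) lower at 3 months. Counts of list members in silica below are to be read against these shares. Most differences were small: 28 genes were at least 2-fold higher and 6 at least 2-fold lower, and the median of all genes was -0.002. The 12 mice of 3 months did not overlap with the 12 of 1 day for 10 genes, 0.0795% of those tested. Ctsk, Spp1, Apoe, Asgr2 and Mreg were higher in every 3-month mouse than in any 1-day mouse, and F10, Angptl2, Meis1 and Sema5a were among the genes that were lower. All 391 genes had the same sign in wildtype and in knockout mice, which their choice by the joint test favours. Fitted with the air mice in 1 model of 48 libraries, 788 genes passed, 390 of the 391 among them.

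Macrophage genes of particle-laden and lipid-laden lungs were among the clearest increases. Ctsk (chromosome 3, 95499210 to 95509387) encodes cathepsin K, a collagen-cutting protease best known from osteoclasts. Its level in the 12 mice of 1 day was 23.2 at the lowest, 32.3 at the median and 43.1 at the highest, and in the 12 mice of 3 months 50.6, 75.9 and 106. The groups did not overlap, and the difference was 1.24 (SE 0.10, edgeR adjusted p = 2.08e-09). Air mice had 7.12 to 23.4 at 1 day and 8.04 to 14.9 at 3 months, below every silica mouse of 3 months. Here and below, a difference is on the log2 scale, 3 months over 1 day.

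Spp1, the secreted phosphoprotein osteopontin made by scar-associated macrophages, was 42.5, 57.1 and 69.8 (lowest, median, highest) at 1 day and 87.1, 122 and 191 at 3 months. The difference was 1.15 (SE 0.10, adjusted p = 1.09e-08). Air mice also gained Spp1, from a median of 29.9 to 39.4 (0.48, adjusted p = 0.036), and the gain in silica minus that in air, 0.70, missed the threshold (adjusted p = 0.059). Mmp12, macrophage elastase, was 3.46, 13.5 and 27.8 at 1 day and 24.1, 39.9 and 186 at 3 months. It rose by 1.91 (SE 0.28, adjusted p = 4.69e-05) with 10 of 12 mice of 3 months above every 1-day mouse, and the value of 186 belongs to the 3-month knockout replicate 3 named above. In air mice Mmp12 stayed between 1.07 and 7.80.

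Apoe, which carries cholesterol out of macrophages, went from a range of 179.5 to 341 to one of 356 to 644, a rise of 0.60 (SE 0.09). Gpnmb, a lysosomal glycoprotein of lipid-laden macrophages, rose by 0.62 (SE 0.15), from a median of 69.3 to 100.1. Of the 15 tested genes of the lipid-laden and scar-type macrophage list these 4 passed, all higher, with a list median of 0.22 against -0.002 for all genes, and the same number passed without the libraries that stood apart. In air 2 of 13 passed (Spp1 and Apoe). Tested directly, silica minus air gave 0 calls among the 15 by edgeR, with 6 at an unadjusted p under 0.05, all higher.

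Lysosomal genes held 3 increases among 17 tested, against 1.8% of all tested genes. Without the 2 libraries that stood apart there were 5 increases and 1 decrease among 18. Besides Ctsk the 3 increases included Ctsd, the main aspartic protease of lysosomes, with 0.60 (SE 0.11, adjusted p = 0.0013). Ctsd was 346, 468 and 577 at 1 day and 548, 637 and 1513 at 3 months, and the highest value again came from the 3-month knockout replicate 3. Ctsd was among the genes whose gain in silica exceeded that in air (0.54, adjusted p = 0.046). Mreg, a regulator of lysosome maturation, rose from a range of 3.25 to 6.80 to one of 8.04 to 15.8 (1.10, SE 0.15, adjusted p = 2.62e-05).

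Among resident alveolar macrophage genes 1 of 12 passed, Marco, against 3.11% of all tested genes, and the median was 0.05. Marco, the scavenger receptor that binds uncoated particles such as silica, was 32.9, 54.2 and 70.7 at 1 day and 55.5, 85.0 and 115 at 3 months, a rise of 0.61 (SE 0.09, adjusted p = 3.43e-05). Air mice had 12.4 to 40.3, so the 3-month silica mice lay above all of them. Among 13 genes of interstitial macrophages and monocytes 2 rose, one of them Csf1r (0.24), the receptor for macrophage colony-stimulating factor.

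Of 15 tested complement genes 5 rose, against 1.8% of all tested genes. All 15 estimates were above 0 (median 0.28, while in air 3 of 16 passed with a median of 0.11). C1qa, C1qb and C1qc, the 3 chains of the recognition molecule C1q, rose by 0.78, 0.52 and 0.56. Without the 2 libraries that stood apart C1qb had 0.36, which did not pass (adjusted p = 0.074). C1qa was 7.20, 16.1 and 26.4 at 1 day and 20.9, 23.7 and 50.2 at 3 months, with 4 mice above the 1-day range, while air mice stayed between 10.1 and 17.3. C4b, the next component of the classical pathway, rose by 0.53 (SE 0.07, adjusted p = 2.62e-05) with 11 of 12 mice above the 1-day range, and it rose in air as well (0.33, adjusted p = 0.01). The fifth call was Cfp, properdin (0.47). The test of silica minus air gave 0 calls among 16 complement genes by edgeR, with 4 at an unadjusted p under 0.05, all higher. The complement count was 2 without wildtype silica replicate 5 of 1 day and 3 without the 3 libraries named above, and over the 24 fits that each left out 1 library the calls on Cfp and C1qb were lost in 13 and 4.

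**Figure D1:**
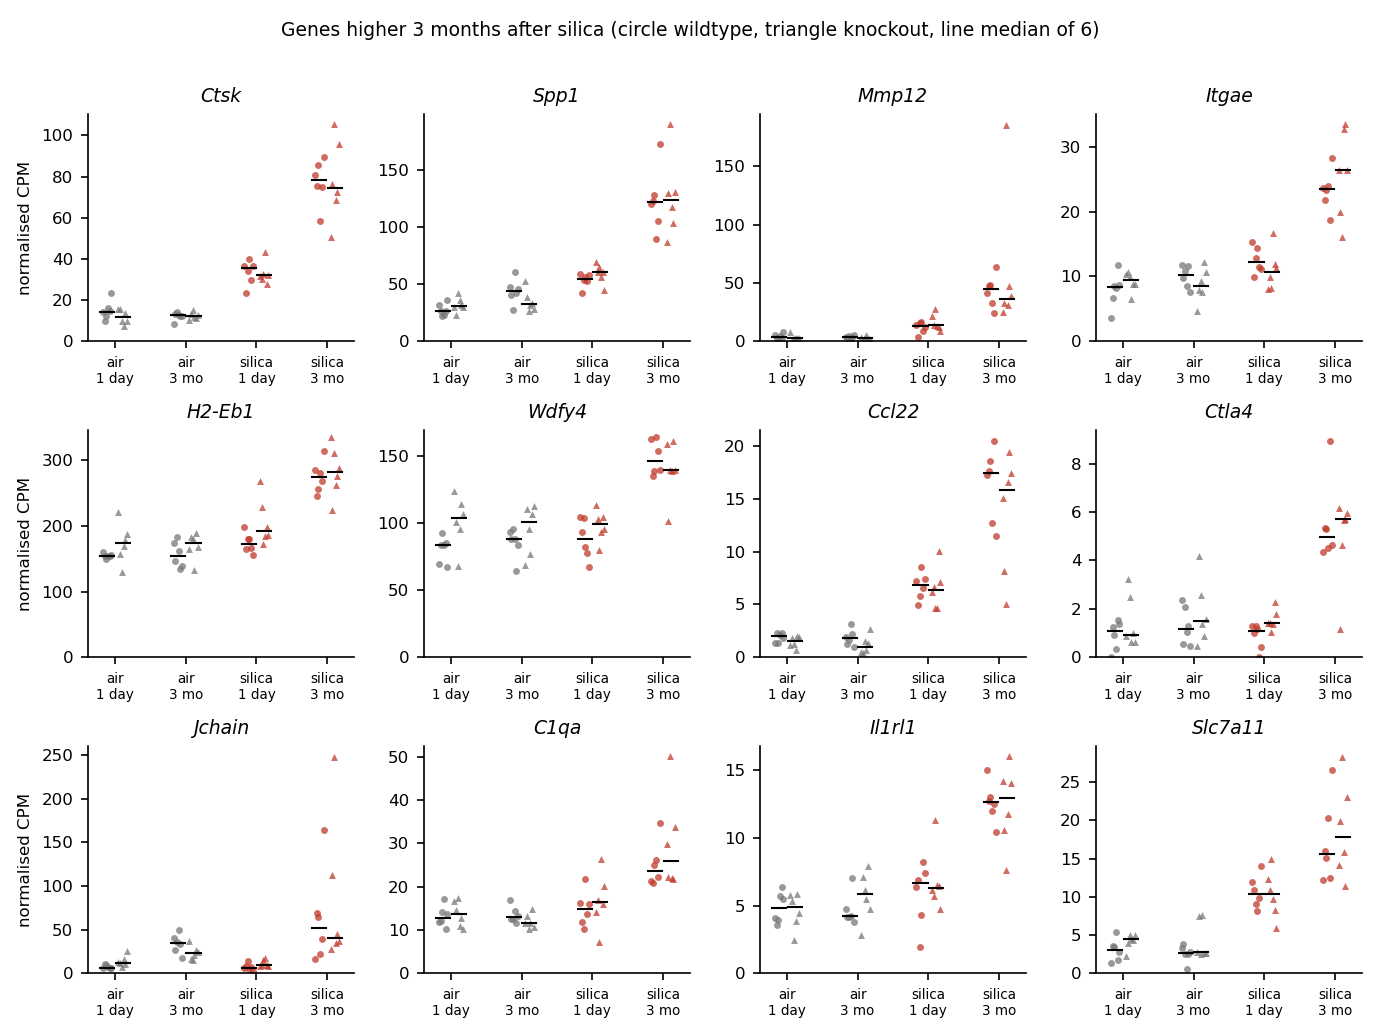
Normalised CPM of 12 genes that were higher 3 months after silica. Grey points are air mice and red points silica mice, circles wildtype and triangles knockout, 6 per group, with a line at each group's median. Ctsk and Spp1 do not overlap between the silica times. The single high triangle of Mmp12 and the highest triangle of Jchain are knockout replicate 3 of 3 months.

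Dendritic cells sample particles and carry them to lymph nodes, and class II molecules of the major histocompatibility complex present peptides to helper T cells. Of 15 tested genes of the dendritic cell and class II list 12 passed, all higher, against 1.8% of all tested genes. All 15 estimates were positive, with a median of 0.47. None of the 14 tested in air passed (edgeR, 2 at an unadjusted p under 0.05), where the median was 0.04. The DESeq2 Wald test called the same number in silica, 12, and leaving out each library in turn gave 12 or 13.

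H2-Eb1, H2-Ab1 and H2-Aa encode the chains of the class II molecules I-E and I-A. H2-Eb1 was 156, 182 and 269 at 1 day and 224, 279 and 336 at 3 months, and it rose by 0.56 (SE 0.07, adjusted p = 5.86e-06). Its groups overlapped through the highest knockout mice of 1 day. The air mice had 130.0 to 221 at 1 day and 134 to 190.1 at 3 months, with no difference that passed. H2-Ab1 and H2-Aa both rose by 0.47, H2-DMb1, which helps load peptides, by 0.41, Cd74, the invariant chain, by 0.33, and Ciita, the transactivator of all class II genes, by 0.45 (SE 0.11, adjusted p = 0.013).

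Class II promoters carry conserved boxes on which the factors recruited by Ciita assemble, one of which, the Y box, holds an inverted CCAAT. The 150 bases before the start of 3 of the class II genes that rose are shown for that reason, from RefSeq on GRCm38.p6, 5′ to 3′ on the gene's strand, with CCAAT or its reverse complement ATTGG in capitals.
H2-Eb1 (chr17:34305717-34305866, plus strand): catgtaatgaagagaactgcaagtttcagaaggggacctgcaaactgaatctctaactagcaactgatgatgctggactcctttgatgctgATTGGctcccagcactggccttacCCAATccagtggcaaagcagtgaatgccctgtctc
H2-Aa (chr17:34287824-34287973, minus strand): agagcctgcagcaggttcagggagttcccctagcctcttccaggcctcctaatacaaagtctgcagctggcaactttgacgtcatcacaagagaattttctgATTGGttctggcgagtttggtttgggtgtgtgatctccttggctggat
H2-DMb1 (chr17:34153041-34153190, plus strand): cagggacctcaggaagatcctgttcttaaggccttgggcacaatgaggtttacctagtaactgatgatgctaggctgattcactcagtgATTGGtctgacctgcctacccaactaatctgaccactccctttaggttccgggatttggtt
Each of the 3 holds ATTGG, and all 3 are among the members with a match, so they say nothing of the list as a whole. Over the 250 bases before the start, CCAAT on either strand was found in 5 of 12 list members with a promoter entry, against 37.5% of 27025 genes, and the longer CTGATTGG in 2 of 12, H2-Eb1 and H2-Aa, against 4.43%. Of the 8 members that passed and have a promoter entry, 4 hold CCAAT. A match describes the letters and shows no binding.

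Other members of this list are known from the conventional dendritic cells that take up dead cells. Itgae, the CD103 integrin chain of these cells and of tissue-resident T cells, was 8.07, 11.4 and 16.7 at 1 day and 16.0, 23.8 and 33.6 at 3 months. It rose by 1.07 (SE 0.13, adjusted p = 2.67e-06), 11 of 12 mice of 3 months lay above the 1-day range, and the gain exceeded that in air (0.97, adjusted p = 0.012). Xcr1, a chemokine receptor of the same cells, rose by 1.09 and Clec9a, their receptor for dead-cell actin, by 1.20 (SE 0.19, adjusted p = 0.000134). Flt3, the growth factor receptor on which these cells depend, rose by 0.96.

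The next genes were named for the size of their change or for the test of silica minus air. Wdfy4, needed for cross-presentation, was 67.0, 94.6 and 114 at 1 day and 102, 139.8 and 164 at 3 months (0.64, SE 0.08, adjusted p = 2.67e-06). Air mice had 64.5 to 124 over both times. Ly75, the uptake receptor DEC-205, rose by 0.67, and Naaa, a lipid amidase, by 0.56. Fscn1, the actin bundler of mature dendritic cells, rose by 1.26 (SE 0.24), from a median of 11.9 to 23.7. Its highest value, 94.1, was the 3-month knockout replicate 3, and the other 5 mice of that group had 14.1 to 31.2. Without the 2 libraries that stood apart its rise was 0.85. Cd207, langerin, rose by 1.60 from a median of 2.25 to 6.15, at a level of few reads per library, with knockout replicate 3 of 3 months at 0.422. H2-M2, a nonclassical class I gene, rose by 1.44.

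In the class I and immunoproteasome list 1 of 11 tested genes was higher, H2-K1 (0.37, adjusted p = 0.0013), against 1.8% of all tested genes. Interferon-stimulated genes gave 0 calls among 16 tested by edgeR, with 3 at an unadjusted p under 0.05, all lower, and 1 call, lower, by the DESeq2 Wald test.

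Of 9 tested chemokines that draw lymphocytes and monocytes 3 rose. Ccl22, which attracts regulatory and type 2 helper T cells through Ccr4, was 4.63, 6.59 and 10.1 at 1 day and 5.07, 17.0 and 20.5 at 3 months. The difference was 1.19 (SE 0.17, adjusted p = 3.75e-05), and 10 of 12 mice of 3 months were above the 1-day range, while knockout replicates 2 and 3 of 3 months, the shallow library and the one that stood apart, lay inside it. Air mice had 0.416 to 3.18. Cxcl13, which organises B cell follicles, rose by 1.23 (SE 0.26), from a median of 2.91 to 5.94, and Ccl6, a macrophage chemokine, by 0.41. Each of the 24 fits that left out 1 library called 3 of them higher. The test of silica minus air gave 0 calls among the 9 by edgeR, with 2 higher and 2 lower at an unadjusted p under 0.05.

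Costimulation and regulatory T cell genes gave 4 calls among 7 tested, all higher, with a list median of 0.86. Ctla4, the inhibitory receptor of regulatory and activated T cells, was 0.00, 1.28 and 2.29 at 1 day and 1.17, 5.33 and 8.93 at 3 months (2.08, SE 0.25, adjusted p = 2.47e-06). Apart from the shallow knockout replicate 2 at 1.17, all 3-month silica mice exceeded the 1-day range, and air mice had up to 4.16. Its ligands Cd80 and Cd86, carried by antigen-presenting cells, rose by 0.92 and 0.86, and Ikzf2, the regulatory T cell factor Helios, by 0.41. Tested directly, silica minus air gave 0 calls among the 7 by edgeR, with 2 at an unadjusted p under 0.05, both higher. Il1rl1, the interleukin 33 receptor found on regulatory T cells and type 2 innate lymphoid cells, rose from 1.94, 6.40 and 11.3 to 7.60, 12.6 and 16.0 (0.98, SE 0.16, adjusted p = 0.000185). In air it stayed between 2.48 and 7.90.

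Of 10 tested general T cell and natural killer cell markers 0 passed by edgeR and by the DESeq2 Wald test, 3 had an unadjusted p under 0.05, all lower, and the median was -0.14. The summed level of the list was 64.9 to 134.7 at 1 day and 73.7 to 106.5 at 3 months.

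Jchain (chromosome 5, 88519809 to 88527897), the joining chain of polymeric IgA and IgM made by plasma cells, had the largest increase of all named genes. It was 2.88, 8.74 and 17.6 at 1 day and 16.2, 42.0 and 248 at 3 months, a rise of 3.00 (SE 0.39, adjusted p = 1.01e-05), with 11 of 12 mice above the 1-day range. The value of 248 is knockout replicate 3, and over the fits that each left out 1 library the rise was 2.59 to 3.11. Air mice rose too, from a median of 9.64 to 26.6 (1.48, adjusted p = 6.4e-05), and the excess in silica, 1.62, missed the threshold (adjusted p = 0.26). Pigr, the epithelial receptor that carries such IgA into the airway lumen, rose by 0.62 in silica and by 0.57 in air. In the B cell and plasma cell list Jchain and Cxcl13 were the 2 calls among 12, and the list median was -0.13.

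Saa3 and Cxcl1 fell and stayed above the air mice at 3 months. Saa3 (chromosome 7, 46711998 to 46719615), an acute phase protein made in the lung by epithelium and macrophages, was 22.2, 49.9 and 87.8 at 1 day and 6.00, 18.6 and 43.9 at 3 months. It fell by 1.17 (SE 0.21, adjusted p = 0.000812), and 8 of 12 mice were below the 1-day range. All 24 air mice of both times were at or below 3.21, under the lowest silica mouse of 3 months. Cxcl1, the main neutrophil attractant of mice together with its relatives, was 12.0, 19.0 and 29.9 at 1 day and 5.07, 10.2 and 16.7 at 3 months (-0.86, SE 0.17, adjusted p = 0.00243), against 0.491 to 3.07 in air. Icam1, the adhesion molecule through which leukocytes leave vessels, fell by 0.27, and its 419.2 to 534.4 at 3 months overlapped with the 341.3 to 443.4 of the air mice.

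Cxcl1 was the 1 call among 5 tested neutrophil chemokines, and 2 of 6 passed, both lower, without the 2 libraries that stood apart. Neutrophil markers themselves gave 0 calls among 8 by edgeR and by the DESeq2 Wald test, with 1 at an unadjusted p under 0.05. The summed level of the 14 listed markers was 100.7 to 213.6 at 1 day and 90.0 to 351.5 at 3 months. Cxcr1, an interleukin 8 receptor, rose by 1.36 (SE 0.27) with a highest value of 21.1. Among 12 tested acute phase and secreted defence genes Saa3 fell and Pigr rose. The DESeq2 Wald test called 3 of the 12 higher, and without the 2 libraries that stood apart 3 were higher and 2 lower. In air 4 of 11 rose, Lcn2, Pigr, Cp and Serpina3n, with a list median of 0.21 against -0.02 in silica.

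F10, coagulation factor X, fell without overlap. It was 26.8, 34.1 and 44.0 at 1 day and 13.4, 19.8 and 23.6 at 3 months (-0.83, SE 0.09, adjusted p = 7.66e-07). The air mice had 11.3 to 25.0, so the 1-day silica mice lay above all air mice and the 3-month mice lay within their range. The fall in silica minus the change in air was -0.85 (adjusted p = 0.00048).

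Of 20 tested cell division genes 6 fell, all 20 estimates were negative, and the median was -0.49. In air 0 of 11 tested members passed (edgeR, 1 at an unadjusted p under 0.05) and the median was -0.0037. Mki67, the proliferation marker Ki-67, was 44.7, 96.9 and 205 at 1 day and 36.3, 66.6 and 109 at 3 months (-0.63, SE 0.18, adjusted p = 0.0466), and the ranges overlapped. Air mice had 19.4 to 42.2, and all but 1 of the silica mice of 3 months lay above them. Top2a, the topoisomerase of dividing cells, fell by 0.59, Nusap1, a spindle protein, by 0.86, and the replication licensing genes Mcm6, Mcm2 and Mcm3 by 0.69, 0.47 and 0.43. Mcm6 was 11.9, 17.1 and 20.6 at 1 day and 3.00, 9.93 and 18.6 at 3 months, with 10 of 12 mice below the 1-day range. Outside the list, Iqgap3, a scaffold of dividing cells, fell by 1.14 and Cep55, which acts at the last step of division, by 0.88. Over the 24 fits that each left out 1 library the calls on Mcm3 and Cep55 were lost in 14 and 9, and that on Cep55 also with voom quality weights, with all 70 libraries and without the 3 libraries named above. The number of list members called ran from 3, without wildtype silica replicate 6 of 1 day, to 10, without knockout silica replicate 3 of 3 months, and the test of silica minus air gave 0 calls in this list by edgeR, with 9 members at an unadjusted p under 0.05, all lower.

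Promoters of cell cycle genes often hold CCAAT boxes and the cell cycle homology region, TTTGAA, through which they are repressed in resting cells. The 150 bases before the start of 3 members that fell are shown for these letters, from RefSeq on GRCm38.p6, with CCAAT and TTTGAA on either strand in capitals.
Mki67 (chr7:135716380-135716529, minus strand): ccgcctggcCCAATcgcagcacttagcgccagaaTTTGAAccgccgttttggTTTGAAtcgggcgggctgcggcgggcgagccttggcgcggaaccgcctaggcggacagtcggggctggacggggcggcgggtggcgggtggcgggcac
Top2a (chr11:99024190-99024339, minus strand): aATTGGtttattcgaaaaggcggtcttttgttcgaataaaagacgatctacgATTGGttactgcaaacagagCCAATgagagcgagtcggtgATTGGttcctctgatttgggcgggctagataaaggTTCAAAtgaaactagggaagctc
Mcm6 (chr1:128359706-128359855, minus strand): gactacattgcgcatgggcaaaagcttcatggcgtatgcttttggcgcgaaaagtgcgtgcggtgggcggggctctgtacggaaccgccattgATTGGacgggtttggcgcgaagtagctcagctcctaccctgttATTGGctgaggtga
Top2a holds 5 such matches in this window, Mki67 holds 3 and Mcm6 holds 2. Over 250 bases, CCAAT on either strand was found in 19 of 22 list members with a promoter entry and in 37.5% of all 27025 genes, and TTTGAA in 7 of 22 and in 18.3%. Of the 6 members that passed, 5 hold CCAAT and 3 hold TTTGAA.

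**Figure D2:**
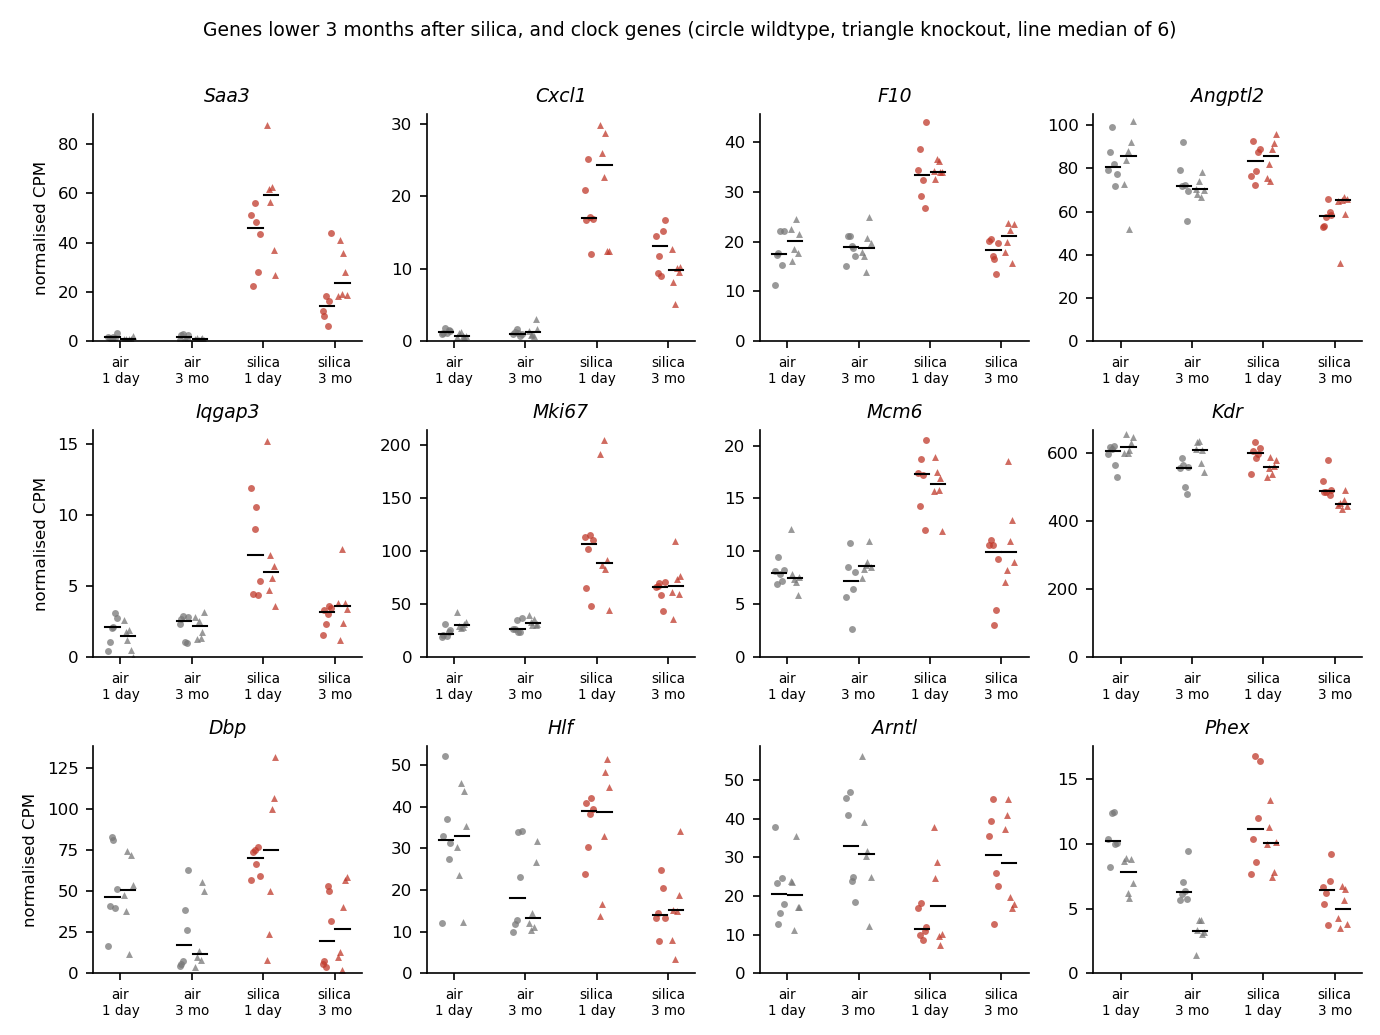
Normalised CPM of 11 genes that were lower 3 months after silica and of Arntl, which was higher, with symbols as in the plot of rising genes. F10 falls from above the air mice at 1 day into their range at 3 months, Saa3 and Cxcl1 stay above air at both times, and Dbp and Hlf are also low in several air mice of 3 months.

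Alveolar type 2 and surfactant genes (15 tested), alveolar type 1 genes (13) and club cell genes (11) gave 0 calls by edgeR, with 3, 4 and 2 members at an unadjusted p under 0.05, and the DESeq2 Wald test called 1 of them, an alveolar type 1 gene that was lower. Without the 2 libraries that stood apart 2 alveolar type 2 genes were higher, 1 alveolar type 1 gene was lower, and 1 club cell gene was higher and 1 lower. With voom quality weights 4 alveolar type 2 genes were higher. The summed surfactant level was 16370 to 20030 at 1 day and 16910 to 20000 at 3 months. Cdkn1a, the cell cycle inhibitor p21, rose by 0.64 (SE 0.15), and Ano1, a calcium-activated chloride channel of airway epithelium, fell by 0.25 with 11 of 12 mice below the 1-day range.

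Of 15 tested ciliated cell genes 4 passed, Dnah9, Ccdc40, Tekt1 and Hydin, all higher with differences of 0.40 to 0.49, and all 15 estimates were positive (median 0.37). In air 4 of 15 passed as well, all higher, with a median of 0.26. Dnah9, an outer dynein arm chain, was 59.6, 71.3 and 98.3 at 1 day and 46.4, 102 and 120.0 at 3 months. Its lowest value, 46.4, was knockout replicate 3 of 3 months, and without that library 11 of the 15 genes passed, while without wildtype replicate 1 of 1 day 1 did. The summed level of the list was 441.7 to 573.7 at 1 day and 300.2 to 752.1 at 3 months, the lowest again in knockout replicate 3. The part of that library, which was also low in club cell genes, was not tested.

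Endothelial, smooth muscle and fibroblast genes gave 1 call among 16, 1 among 13 and 0 among 12 tested by edgeR, against 3.11% of all genes. Kdr, the VEGF receptor 2 of capillaries, fell by 0.26 (SE 0.04, adjusted p = 0.000293) and was below the 1-day range in 11 of 12 mice: 529.8, 581 and 632 at 1 day against 435, 479.5 and 578. It was the 1 call among 16 endothelial genes, of which 7 were lower and 1 higher at an unadjusted p under 0.05. Angptl2, an angiopoietin-like secreted factor, Meis1, a homeobox factor of lung vessels and mesenchyme, and Sema5a, a guidance molecule, fell by 0.50, 0.37 and 0.50 without overlap between the times. Sema5a fell in air too (-0.27, adjusted p = 0.042). Pdgfrb, a pericyte receptor, fell by 0.24, a call lost in 16 of the 24 fits that each left out 1 library. Its highest value at 3 months was that of knockout replicate 3, and without the 2 libraries that stood apart it fell by 0.31 (adjusted p = 0.000172). Of fibroblast genes 0 of 12 passed by edgeR and by the DESeq2 Wald test, with 3 lower at an unadjusted p under 0.05, and 1 passed, lower, without the 2 libraries that stood apart.

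Of 23 tested matrix and fibrosis genes 1 was higher and 1 lower, against 3.11% of all tested genes, and the median was -0.03. Lox, which crosslinks collagen, was 82.7, 114 and 157 at 1 day and 119, 155 and 288 at 3 months (0.47, SE 0.11, adjusted p = 0.0124), while its relative Loxl2 fell by 0.47 (adjusted p = 0.0476). The call on Loxl2 was lost in 18 of the 24 fits that each left out 1 library. Without the 2 libraries that stood apart 3 of the 23 were lower, among them Loxl2 (-0.49, adjusted p = 0.0094) and Tnc, a matrix glycoprotein (-0.54, adjusted p = 0.00718, against -0.32 and 0.349 with all libraries), and without 3 libraries 4 were lower. The summed level of the list was 4909 to 8282 at 1 day and 4805 to 8870 at 3 months.

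**Figure D3:**
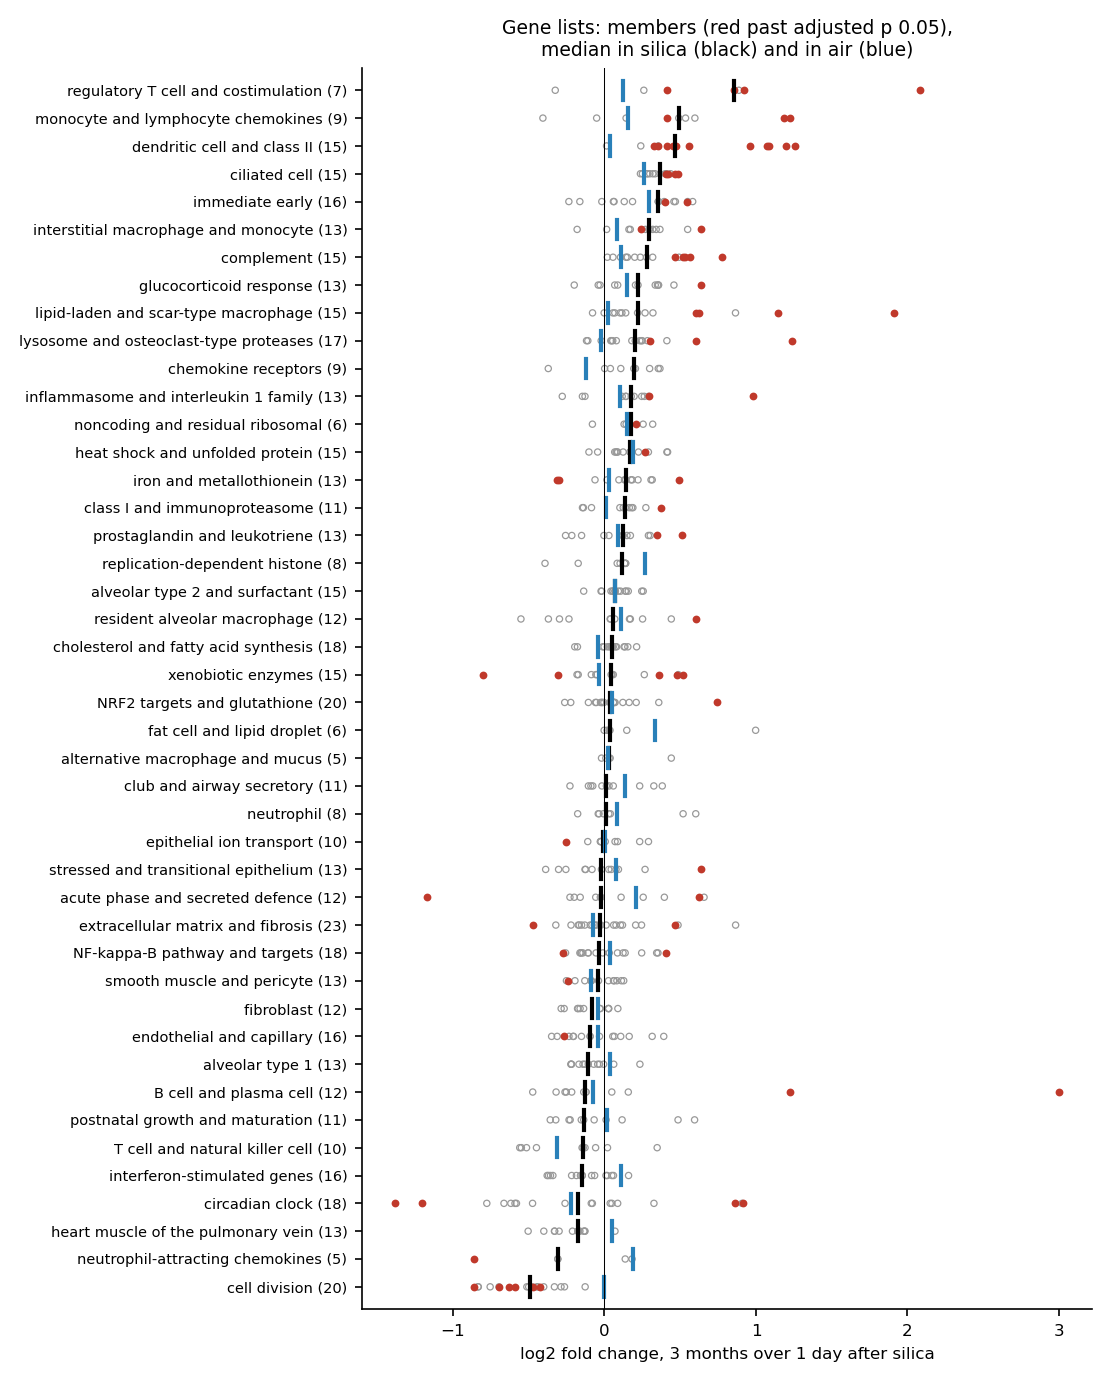
Log2 fold change, 3 months over 1 day after silica, of the tested members of each gene list with at least 5 of them (number in brackets). Red points passed the threshold, black bars are the list medians in silica and blue bars the medians in air. Dendritic cell and class II genes lie to the right with an air median of 0.04, and all cell division genes lie to the left.

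Slc7a11, the cystine importer of the oxidant response, was 5.96, 10.3 and 14.9 at 1 day and 11.4, 15.9 and 28.3 at 3 months, a rise of 0.75 (SE 0.16, adjusted p = 0.00561), against 0.530 to 7.58 in air. It was the 1 call among 20 NRF2 target and glutathione genes (median 0.04), against 3.11% of all tested genes. Ftl1, ferritin light chain, rose by 0.49, while Tfrc, the transferrin receptor, and Slc30a1, a zinc exporter, fell by 0.30 and 0.31. These were the 3 calls among 13 tested iron and metallothionein genes. The call on Tfrc was lost in 8 of the 24 fits that each left out 1 library. That on Slc30a1 was lost in 1 of them and without the 3 libraries named above. Among 15 xenobiotic enzymes Cyp1b1 (0.48), Aldh3a1 (0.52) and Cyp2s1 (0.36) rose, and Cyp1a1 (-0.80) and Fmo2 (-0.30) fell. Leaving out each library in turn gave 0 to 4 higher and 0 to 2 lower calls in that list, with 0 higher without wildtype replicate 4 of 1 day and 0 lower without wildtype replicate 2 of 1 day. Cholesterol and fatty acid synthesis gave 0 calls among 18 by edgeR and by the DESeq2 Wald test, with 2 higher at an unadjusted p under 0.05. Ptgs1 and Tbxas1, which make prostaglandin precursors and thromboxane, rose by 0.35 and 0.52.

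Of 18 tested clock genes 2 were higher and 2 lower. Dbp and Hlf are output factors of the molecular clock that peak together, and Arntl, its positive arm, runs in antiphase to them. Dbp was 8.07, 70.2 and 132 at 1 day and 2.11, 22.3 and 58.4 at 3 months (-1.38, SE 0.37, adjusted p = 0.0315). Hlf fell by 1.21 (SE 0.23, adjusted p = 0.00201), and Arntl and Nfil3 rose by 0.91 and 0.86. Air mice showed values of like sign, Dbp -1.15 and Arntl 0.61, but 0 of the 18 clock genes passed there by edgeR, with 12 at an unadjusted p under 0.05. The silica minus air value of Dbp was -0.29 (adjusted p = 0.96). In wildtype mice Dbp ranged from 56.9 to 77.1 at 1 day and from 4.13 to 53.3 at 3 months, and in knockout mice from 8.07 to 132 at 1 day. The calls on Dbp, Nfil3 and Arntl were lost in 8, 13 and 4 of the 24 fits that each left out 1 library, and Nfil3 did not pass without the 2 libraries that stood apart (adjusted p = 0.062). The hour of collection is not given in the sources used here, so its part cannot be told apart from that of time after exposure. Among 16 immediate early genes Ier2 (0.55) and Btg2 (0.40) rose, and in air Fos (1.15) and Junb did.

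Further lists held 1 or 2 calls each. They were 2 of 13 inflammasome and interleukin 1 family genes, and 1 higher and 1 lower of 18 NF-kappa-B genes. Of 13 glucocorticoid-responsive, 15 heat shock, 13 transitional epithelium and 6 noncoding genes 1 each was higher. These are larger shares than the 3.11% of all tested genes, each resting on 1 or 2 calls. Chemokine receptors (9), heart muscle (13), histones (8), growth genes (11), lipid droplet genes (6), alternative macrophage genes (5), red blood cell genes (4), mast cell genes (2) and skeletal muscle genes (1) gave 0 by edgeR, with 3, 0, 0, 3, 1, 1, 1, 2 and 0 at an unadjusted p under 0.05, and the DESeq2 Wald test called 1 of them, a mast cell gene that was lower. Without the 2 libraries that stood apart 1 chemokine receptor was higher, and 1 growth gene and 1 mast cell gene were lower. Mitochondrially encoded genes were not analysed here.

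The remaining large differences were in genes of low level. Asgr2, a galactose-binding lectin known from liver cells and also found on macrophages, was 0.00, 1.09 and 1.79 at 1 day and 2.11, 5.75 and 11.6 at 3 months (2.52, SE 0.30, adjusted p = 2.47e-06), while air mice had up to 2.76. Adm, the vasodilator adrenomedullin, rose by 1.45, Dnase1l3, a nuclease of macrophages and dendritic cells, by 1.29, Greb1l by 1.35 and Sept3, a septin, by 1.32. Syt6, Lrtm2 and Txlnb, best known from nerve or muscle, fell by 0.89 to 1.45 from 1-day medians of 4.19 to 10.8. Psca, a surface antigen of epithelium, fell by 0.89 (SE 0.16), and so did Phex, an endopeptidase, by 0.89 (SE 0.16). Phex fell by 0.88 in air as well (adjusted p = 0.00081). The call on Syt6 was lost in 8 of the 24 fits that each left out 1 library and without the libraries that stood apart.

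Against the air mice, the time difference in silica stood out for few genes by a direct test. In air 117 of 12552 genes (0.932%) passed between 1 day and 3 months, and 39 genes passed in both exposures, all in the same direction, which is 10.7% of the silica calls and 34.5% of the air calls among the 12385 genes tested in both. The test of the difference itself, over 48 libraries and 12941 genes, called 21 genes (0.162%), 15 higher (0.116%) and 6 lower (0.0464%) in silica. The genes that passed in both exposures included C7, a late complement component (0.33 in silica and 0.42 in air), Kcnj15, a potassium channel (0.30 and 0.39), Cxcl14, a chemokine (-0.42 and -0.49), and Itga8, an integrin of lung mesenchyme (-0.37 and -0.29). In the test of the difference Ctsk came first, with 1.37 (SE 0.18, adjusted p = 4.6e-06). Over 57 alternative fits of that test the calls on Ctsk, H2-Eb1, Ly75 and F10 were each lost in 1. Those on Fscn1, Adam23 and Nov were lost in 5, 10 and 14. Calls on Sept3, Itgae, Wdfy4, Naaa, Bcan, Pcsk6 and Ptgs2 were kept in each.

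Of 15 dendritic cell and class II genes 5 passed that test, H2-Eb1 (0.58), H2-Ab1 (0.38), Itgae (0.97), Fscn1 (1.44) and Cst3 (0.36), beside Wdfy4 (0.67), Ly75 (0.81) and Naaa (0.56). Mpeg1, a pore-forming protein of macrophages (0.42), Sept3 (1.52), Adam23 (0.93), Nov, a matricellular protein (0.75), and Pank4 (0.47) were also higher. Adam23 was 6.15, 10.3 and 14.1 at 1 day and 11.7, 21.6 and 32.4 at 3 months, against 5.83 to 14.3 in air.

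Ptgs2, cyclooxygenase 2, passed in the other direction through the air mice. It was 31.0, 50.3 and 71.5 at 1 day and 13.1, 44.9 and 58.0 at 3 months after silica, a difference of -0.26 that did not pass (adjusted p = 0.377). Air mice rose from a median of 28.0 to 44.9 (0.62, adjusted p = 0.00052), and the difference between the exposures was -0.88 (adjusted p = 0.014). Bcan, a brain proteoglycan (-1.23), had -0.74 in silica and 0.46 in air, neither of which passed alone, and Pcsk6, a proprotein convertase (-0.85), had -0.54 and 0.30, of which the first passed. F10, described above, lay on that side too.

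**Figure D4:**
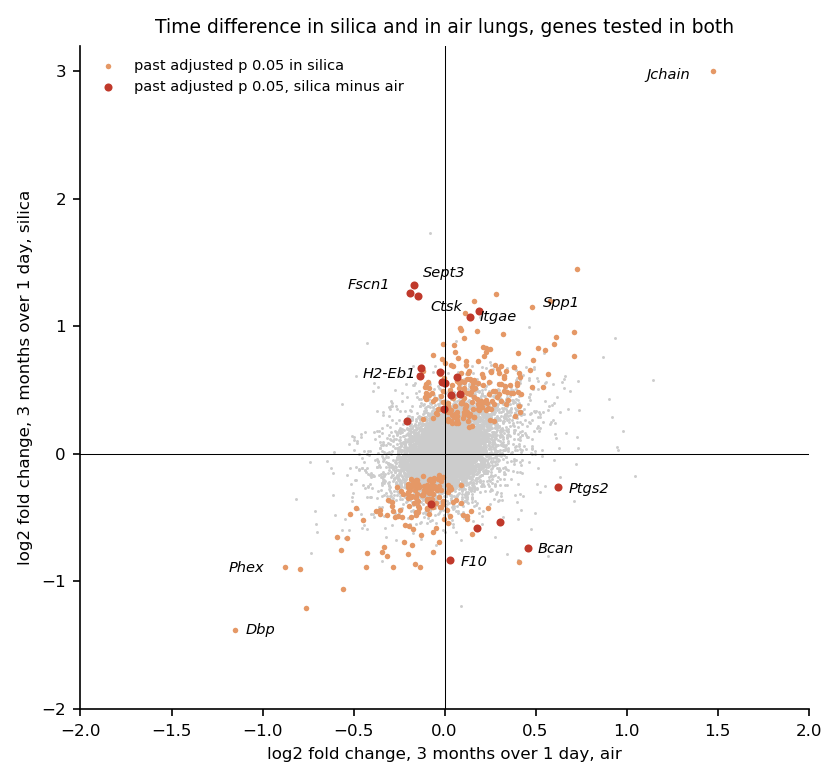
Log2 fold change, 3 months over 1 day, in air mice (horizontal) and in silica mice (vertical) for the 12385 genes tested in both. Orange points passed the threshold in silica and red points passed the test of silica minus air. Ctsk, Sept3, Fscn1 and Itgae lie high above an air change near 0, while Jchain, Phex and Dbp lie away from 0 on both axes.

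Taken alone within the 4-group model, wildtype mice gave 98 calls (0.78%) and knockout mice 108 (0.859%), of which 31 were shared, all in the same direction, 31.6% of the wildtype and 28.7% of the knockout calls. Ctsk rose by 1.22 in wildtype and 1.25 in knockout mice, Spp1 by 1.21 and 1.08, Jchain by 3.22 and 2.83 and Mmp12 by 1.89 and 1.93. The wildtype count was 37 without wildtype silica replicate 3 of 3 months and 203 without knockout silica replicate 3 of 3 months, so the 2 counts are not comparable as sizes of response. With 12 wildtype libraries fitted alone 379 genes passed, and with 12 knockout libraries alone 14.

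The test of the genotype difference in the time effect called 1 of 12571 genes (0.00795%), the row of Mir6236, named as a microRNA gene, with a difference of -1.52 (SE 0.27, adjusted p = 0.0376). It was named after its value was seen. In wildtype silica mice it was 273, 386 and 497 at 1 day and 597, 623 and 1192 at 3 months, and in knockout mice 468, 514 and 816 at 1 day and 259, 313 and 600 at 3 months. The wildtype times did not overlap and the knockout times did. The row stands in the list of noncoding and residual ribosomal genes, as Lars2 does. Its call was lost in many of the fits that each left out 1 library. Among these were the fits without wildtype silica replicate 3, 4, 5 or 6 of 1 day. So were those without knockout silica replicate 3, 4, 5 or 6 of 3 months. With all 70 libraries the call was lost as well. For the dendritic cell, cell division, complement and lipid-laden macrophage lists the test called 0 genes by edgeR, with 1, 1, 0 and 0 at an unadjusted p under 0.05, which does not show that the genotypes responded alike.

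**Figure D5:**
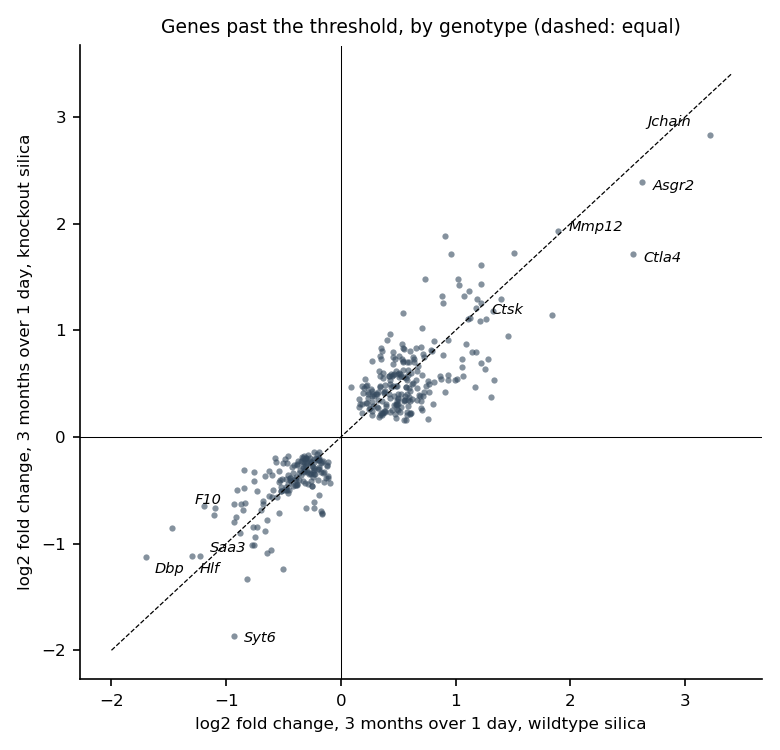
Log2 fold change, 3 months over 1 day after silica, in wildtype (horizontal) and knockout mice (vertical) for the 391 genes that passed with both genotypes together. The dashed line marks equal values. Each gene lies on the same side of 0 in both genotypes, which the choice of genes by their joint test favours.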

How the data were processed

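Total RNA from a lung piece of each mouse was depleted of ribosomal RNA and sequenced as stranded libraries, per the labels' protocols. Per the submitters' processing notes, the build was mm10, and the tools named were HTSeq 0.11.2, HISAT2 2.1.0, Trimmomatic 0.35, bcl2fastq 2.19, SAMtools 1.8 and Cufflinks; the annotation and the strand setting are not given in the sources used here, so antisense and overlapping genes cannot be separated. The authors deposited raw counts per gene. Of 24439 rows, 19 repeats were dropped, and none of the columns lacked a sample (0). Totals were 868097 to 3468575 counts in the 24 silica libraries and 802478 to 5596316 in the 24 air libraries.

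Counts were tested with edgeR 4.0.16 (R 4.3.3, limma 3.58.1): filterByExpr, TMM and the quasi-likelihood F test with Benjamini-Hochberg adjustment at 0.05. Time was fitted with genotype as a block in silica and in air, and as contrasts of 4 groups (genotypes) or 8 groups (silica minus air). The SE is the size of the log2 fold change divided by the root of F. The labels name separate mice as replicates. DESeq2 1.42.0, other filters and scalings, voom quality weights, all 70 libraries and fits without single libraries were alternatives. On simulated counts for the silica time comparison (12502 genes), 82.1% of genes changed 1.5-fold and 94% of those changed 2-fold were called. Of the 192 calls there, 11 were false. For the genotype difference the shares were 26.9% and 71.6%, and for silica minus air 59.7% and 92.5%. The simulated counts held no libraries that stood apart, unlike the data, so these shares need not hold for the data.

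The comparison, its 48 gene lists and the rule for named genes were chosen with earlier results of these data known. The rule took Slc26a4; the 12 largest increases and 12 largest decreases past the threshold with a mean of at least 1 CPM; up to 4 members of each list by smallest p, or the 2 smallest where none passed; up to 10 genes per direction for silica minus air; 5 per direction in air; and the 3 smallest p for genotype where fewer passed. Unnamed, microRNA and small RNA genes were skipped. Mreg, Angptl2, Meis1, Sema5a, Mir6236, Mpeg1, Pank4, Xcr1, Clec9a, Flt3, Cd74, Ciita, H2-DMb1, Cst3, Mki67, Top2a, C1qc, Aldh3a1, Junb, Lcn2, Cp and Serpina3n were named outside it, after their values were seen. Gene positions and promoters are from RefSeq (GRCm38.p6, the assembly behind mm10). Some named genes are not reported here.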

Additional observations from a re-analysis of the deposited data

Results flagged for a closer look

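A value was marked where the highest or lowest of 6 mice lay far from the other 5 (Dixon's criterion, which chance meets in about 1 in 20 groups). This held for 49 of 552 gene and group pairs (8.88%), in 45 of 138 named genes.

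Knockout replicate 3 of 3 months gave 18 of them, in normalised CPM. It was highest for the macrophage and dendritic genes Mmp12 (186), Gpnmb (267), Apoe (644), Ctsd (1510), Chil3 (1410), Fscn1 (94.1), Ccl6 (412) and Tnfaip2 (130.0). It was also highest for Mcm3 (38.0), Hdc (91.6), Pdgfrb (275), Acaa1b (18.6), Fasn (1320) and Tnc (112). It was lowest for the alveolar gene Clic5 (700.0), the ciliary genes Dnah9 (46.4) and Hydin (33.4), and Cyp2s1 (63.7).

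Wildtype replicate 6 of 3 months was highest for Saa3 (43.9), Jchain (164), Tnfaip2 (75.0), Csf1r (193) and H2-Ab1 (507) and lowest for Ccr7 (19.0) and Fmo2 (800.0). Wildtype replicate 5 of 3 months was highest for Lrtm2 (14.3), Ctla4 (8.93) and Cxcl14 (84.9) and lowest for Loxl2 (7.15). Wildtype replicate 4 of 3 months had Wif1 at 8.25 and Bcan at 0.75. Knockout replicate 2 of 3 months, the shallowest library, had Ctla4 at 1.17, Mmp8 at 41.0 and Tcf7l1 at 7.03.

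At 1 day, knockout replicate 1 had Iqgap3 at 15.2, H2-Aa at 432, Nfil3 at 13.3, Cd207 at 0.475 and Scgb3a2 at 164. Knockout replicate 3 had Il1rl1 at 11.3, Ifit2 at 97.7, C4b at 119 and Ftl1 at 234. Single values in other knockout mice were Slc4a1 at 26.5 (replicate 2), Ctsk at 43.1 (replicate 4) and Dnah9 at 98.3 (replicate 6). Wildtype replicate 6 had Abca3 at 602 and Dnah9 at 59.6.

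By direct tests with edgeR, the time difference of Mir6236 differed between genotypes (-1.52, knockout minus wildtype, adjusted p = 0.0376), and that of 21 genes differed between silica and air. The call on Mir6236 was lost in many of the fits that left out 1 library.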

How the results depend on the processing

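Of 96 named genes called in silica, 70 stayed past the threshold in each of the 24 fits that left out 1 library and 61 under every alternative; none changed sign. The silica time count of 391 was 292 to 536 without single libraries (lowest without wildtype 1-day replicate 6, highest without knockout 3-month replicate 3) and 788 (412 higher, 376 lower) with 48 libraries in 1 fit. The wildtype count of 98 was 384 with voom quality weights, 336 without the 2 libraries that stood apart, 344 without 3 (chosen after seeing the data), 379 with 12 wildtype libraries alone and 37 to 203 without single libraries. The knockout count of 108 was 14 with 12 knockout libraries alone and 75 to 104 without single libraries. The genotype difference count of 1 was 3 by the DESeq2 Wald test, 2 with no low-count filter, 3 with voom, 0 without Lars2 and the noncoding list (which holds Mir6236), 0 with all 70 libraries, 2 without 2 and 2 without 3 libraries that stood apart, and 0 to 4 without single libraries. The air count of 117 was 191 with voom, 15 with all 70 libraries, 24 with 48 libraries and 80 to 205 without single libraries (highest without knockout air 1-day replicate 4). The silica minus air count of 21 was 10 with all 70 libraries and 12 to 27 without single libraries (lowest without wildtype silica 1-day replicate 5). Without the 2 libraries that stood apart 8 cell division genes and 2 smooth muscle genes were lower in silica over time. Higher then were 5 regulatory T cell, 4 complement, 4 xenobiotic, 3 interstitial macrophage, 3 inflammasome and 3 immediate early genes. Also higher were 2 NF-kappa-B, 2 class I and 2 heat shock genes. Of clock genes 1 was higher and 3 lower, and of transitional epithelium genes 1 was higher and 1 lower. Apart from gene removal and sample numbers, the cause was not tested. No paired analysis was possible because each mouse has its own number and replicate numbers follow accession order. At these depths, genes near 1 CPM rest on 1 to 3 reads per library.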
